A study of Drosophila melanogaster with 2 samples.

Results

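In a map of the CG15269-eGFP fusion protein over the Drosophila melanogaster genome, 863 of the 30000 peaks called on both replicates together (2.88%, interval 2.69 to 3.07%) had their summit in a coding exon or a 3' UTR and more than 500 bp from every annotated transcription start site (TSS). They were chosen by summit position alone, with coding exons taken before 3' UTRs: 380 lay in coding exons and 483 in 3' UTRs. These 863 peaks are the members described here. The series measured, by chromatin immunoprecipitation and sequencing (ChIP-seq), where the protein made from CG15269, a gene that RefSeq names only as an uncharacterized protein, was recovered from whole embryos. All embryos were of mixed sex and came from a transgenic line that stably expresses CG15269 with GFP at its C terminus. The source name puts their age at 6 to 18 h, and the separate field for age holds a value that is no embryonic age. The antibody is described as one against GFP in the sample descriptions and as CG15269 in its own field. The labels do not give the promoter that drives the fusion gene or say whether the untagged protein is also present. There was 1 group with 2 biological replicates, numbered 2 and 3, and no second condition, so no test between groups is possible. Shares are given with exact Clopper-Pearson 95% intervals that cover counting error only, since peaks of the same libraries are not replicates. The files hold no read totals, so depth is unknown. Whole embryos mix all tissues, and fewer cells with the protein bound and less protein bound per cell cannot be told apart.

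A ChIP-seq peak marks a place where DNA crosslinked to the recovered protein was enriched, and its summit is the position of the highest signal. Sequence-specific factors are mostly studied at promoters and at enhancers in introns and between genes. Coding exons are constrained by the protein they encode and are rich in G and C in this species. A 3' UTR follows the stop codon, carries sites that act in the messenger RNA, and is rich in A and T.

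The sequence at the summit is printed for the 4 strongest members of each class, outside the arm from which no sequence is given, because the classes differ most in base composition there. Each is 29 bp on the plus strand, centred on the summit, from the RefSeq release 6 genome, and positions are on dm6. Capitals mark a match to one of 16 short consensus words searched on both strands. The 4 coding exon members were those of Pde1c (chr2L:11816562-11816590), l(3)mbn (chr3L:6124813-6124841), CG32428 (chr3L:20471129-20471157) and klar (chr3L:506234-506262). The 4 in 3' UTRs were those of stas (chrX:17625062-17625090), CG7872 (chrX:15579779-15579807), CG5984 (chr3R:27246421-27246449) and by (chr3R:9528632-9528660).
Pde1c: gccgcagcGCCATctgccggctccgcagc
l(3)mbn: catttccggttggtgtattcgctgtcact
CG32428: ggcaggcaaggaaaagaaatctgcaaggc
klar: gaggtcgtctttgccagacgaacccagac
stas: gttatTTTATTactcatacgcacagtgaa
CG7872: acaaaaaaagcacgccacattcgcgtgtt
CG5984: gaATTTATTttaatgaatcattagctaaa
by: ttgggcaTATAAAcaaatatgaatcagtg
The capitals mark the core GCCAT of the Polycomb group factor Pho in Pde1c and the polyadenylation signal AATAAA read on the other strand in stas. They also mark the TATA box letters TATAAA in by. In CG5984 the polyadenylation signal, again read on the other strand, overlaps the letters ATTTA of the AU-rich element. Both stas and CG5984 lie on the minus strand, so a messenger RNA that holds the stretch reads AATAAA there. That of CG5984 does not read ATTTA there. The A+T content of these stretches was 20.7% in Pde1c, 51.7% in l(3)mbn, 48.3% in CG32428 and 41.4% in klar. It was 69.0% in stas, 55.2% in CG7872, 82.8% in CG5984 and 69.0% in by. Each of the 4 stretches in 3' UTRs held more A+T than each of the 4 in coding exons. A match to a word is a description of the letters and not a site.

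Summits were scarce in coding exons for the amount of such sequence. Of the 22641 peaks more than 500 bp from a TSS, 1.68% (interval 1.52 to 1.85%) lay in coding exons, while coding exons made up 16.1% of the bases that far from a TSS. For 3' UTRs the values were 2.13% of the peaks (interval 1.95 to 2.33%) and 5.15% of the bases. Per Mb of eligible sequence there were 20.4 coding exon members and 81.1 members in 3' UTRs. Every base was counted, including bases where short reads cannot be placed.

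The deficit was present on each of the 5 large arms, where coding exons held 1.34 to 1.99% of the peaks away from TSSs and 14.7 to 17% of the bases, and 3' UTRs 1.54 to 2.94% of the peaks and 4.35 to 6.79% of the bases. Coding exon members numbered 78 on 2L, 73 on 2R, 86 on 3L, 90 on 3R and 53 on X, or 22.9, 20.4, 23.8, 20.3 and 15.9 per Mb of eligible sequence. Members in 3' UTRs numbered 74, 78, 83, 132 and 116 on those arms, or 76.1, 77.4, 77.8, 93.2 and 83.1 per Mb. X thus had the lowest density in coding exons, and 3R had the highest in 3' UTRs. Chromosome 4 held no member among its 36 peaks away from TSSs, which with an exact interval allows a share of up to 9.74%. The same 2 kinds of sequence held 331 further summits within 500 bp of a TSS, 61 of them among the strongest peaks described next, and these are not members.

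Members were weak peaks for the most part. The signal of a peak is the value the authors deposited, in a unit not given in the sources used here. It had a median of 47.9 in coding exon members and 59.1 in members in 3' UTRs, against 70.6 in intron peaks and 74.9 in all 30000 peaks. The deposited −log10 q-value, larger where the q-value is smaller, had a median of 0.608 in coding exon members and 0.888 in members in 3' UTRs. It was 1.18 in intron peaks and 1.32 in all 30000 peaks. Its upper quartile was 1.02 in coding exon members and 2.03 in members in 3' UTRs, so many members were weak calls by this value too. The authors also deposited a list of 7029 peaks that passed a threshold on the irreproducible discovery rate (IDR), a measure of how well the ranks of a peak match in 2 replicates. That list held exactly the 7029 peaks with the highest signal in the list of both replicates, so being in it here means a signal of at least 154. It held 84 of the 863 members (9.73%, interval 7.84 to 11.9%), against 23.4% of all 30000 peaks. By class it held 14 of 380 coding exon members (3.68%, interval 2.03 to 6.10%) and 70 of 483 members in 3' UTRs (14.5%, interval 11.5 to 18.0%), against 20.5% of intron peaks (interval 19.8 to 21.1%) and 16.5% of intergenic peaks (interval 15.7 to 17.5%). The interval of the coding exon members lay below all the others, and that of the members in 3' UTRs overlapped that of the intergenic peaks.

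The share of coding exon members grew as the signal fell. Among the 3000 strongest peaks 3 were coding exon members (0.1%, interval 0.0206 to 0.292%), and among those ranked 24001 to 27000 there were 90 (3.00%, interval 2.42 to 3.67%). Members in 3' UTRs changed less over the ranks, with 25 among the strongest 3000 (0.833%, interval 0.540 to 1.23%) and 70 at those weak ranks (2.33%, interval 1.82 to 2.94%). Among the weakest 3000 there were 82 coding exon members and 56 in 3' UTRs. Coding exon members were thus the fewer in the first 8 bins of 3000 peaks and the more numerous in the last 2.

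**Figure D1:**
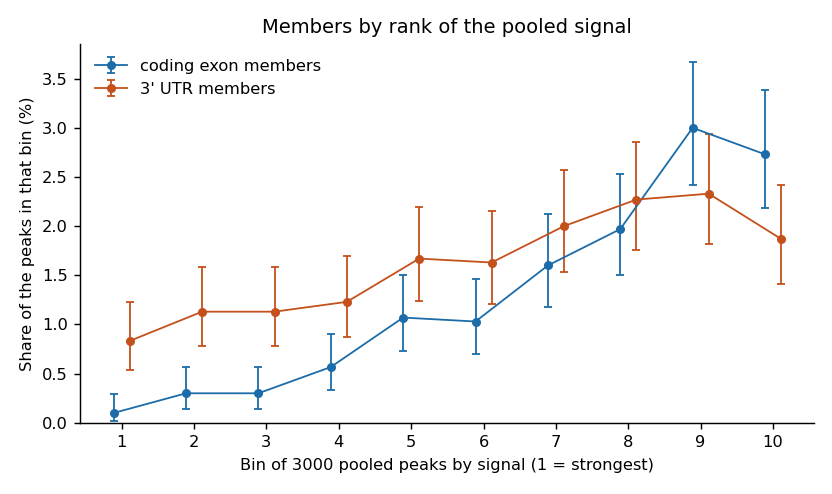
Share of the pooled peaks (%, y axis) that are coding exon members (blue) or 3' UTR members (orange) in each of 10 bins of 3000 peaks ordered by signal (x axis, strongest at the left), with exact 95% intervals as bars. The coding exon share runs between 0.1% in bin 1 and 3.00% in bin 9, and the 3' UTR share between 0.833% and 2.33%.

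Both replicate lists held a peak that overlapped the member by at least 1 bp at 505 of the 863 members (58.5%, interval 55.1 to 61.8%), against 73.9% of all 30000 peaks. The share was 49.2% in coding exon members (interval 44.1 to 54.4%) and 65.8% in members in 3' UTRs (interval 61.4 to 70.1%), against 73.3% in intron peaks (interval 72.6 to 74.0%). Neither list held a peak at 54 members (6.26%, interval 4.74 to 8.09%), against 2.80% of the peaks that are no members (interval 2.61 to 3.00%). Replicate 2 alone had a peak at 177 members (20.5%, interval 17.9 to 23.4%), against 13.0% of the peaks that are no members. Replicate 3 alone had one at 127 members (14.7%, interval 12.4 to 17.3%), against 9.87% of the peaks that are no members. The share of replicate 2 alone was thus the higher in members and in the other peaks alike. The pooled peaks were called from the reads of both replicates, so these shares describe how far each replicate's own call reached and are no independent support. The pooled list and the list of each replicate all hold 30000 peaks, so the shares also depend on that number.

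Most of the gap in these shares went with the signal. Among the 14 coding exon members and the 70 members in 3' UTRs of the IDR list, 14 and 68 had a peak in both lists, against 97.8% of all peaks of those ranks. At ranks 7030 to 15000 the shares were 87.5% of 56 coding exon members (interval 75.9 to 94.8%) and 91.8% of 110 members in 3' UTRs (interval 85.0 to 96.2%), against 93.4% of all peaks. At ranks 15001 to 22500 they were 70.2% of 114 (interval 60.9 to 78.4%) and 66.7% of 141 (interval 58.2 to 74.4%), against 69.8% of all peaks. At like ranks down to 22500 the members' intervals held the value of all peaks. At ranks 22501 to 30000 the shares were 22.4% of 196 coding exon members (interval 16.8 to 28.9%) and 34.0% of 162 members in 3' UTRs (interval 26.7 to 41.8%), against 34.9% of all peaks (interval 33.8 to 35.9%), so that among the weakest peaks the coding exon members lay below.

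Where both lists had a peak, the signals of the replicates were ordered less alike at coding exon members. Spearman's rho between the signals of replicate 2 and replicate 3 was 0.464 across 187 coding exon members and 0.686 across 318 members in 3' UTRs, against 0.704 across 10778 intron peaks. These points share their libraries, and the range of signals differs between the classes. The median distance between the summits of the replicates was 81 bp at coding exon members and 50 bp at members in 3' UTRs, against 51 bp at intron peaks.

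**Figure D2:**
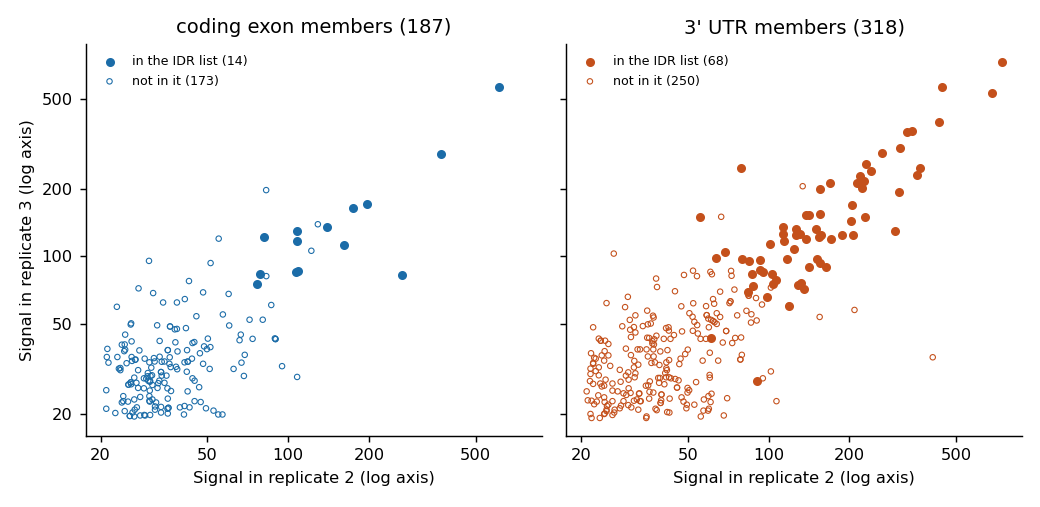
Signal in replicate 2 (x axis, log scale) against signal in replicate 3 (y axis, log scale) for the 187 coding exon members (left) and 318 3' UTR members (right) that overlap a peak in both replicate lists. Filled points are the 14 and 68 of them in the IDR list, and the open points below them fill a cloud near the lowest signals of the lists.

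The 14 coding exon members of the IDR list are given in order of signal. The strongest lay in otp (FBgn0015524), which encodes the homeodomain transcription factor Orthopedia, on 2R (20884428 to 20884765), in the last of 8 exons and 100 bp before the stop codon along the transcript. Its signal was 1174 in the list of both replicates, 611 in replicate 2 and 563 in replicate 3, which ranked it 478 of 30000. The next lay in Pde1c (FBgn0264815), a cyclic nucleotide phosphodiesterase gene on 2L (11816437 to 11816725), 18 bp before the stop codon and also in the last exon. Its signals were 654 in the pooled list, 371 in replicate 2 and 286 in replicate 3. These 2 peaks stood apart from the rest: the third, in l(3)mbn (FBgn0002440) on 3L (6124739 to 6124876), had signals of 370, 196 and 171 in the 3 lists and lay 20 bp from a splice junction.

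The other 11 had pooled signals between 155 and 320. CG32428 had 320 in the pooled list with 265 in replicate 2 and 82.6 in replicate 3, and its summit lay 5 bp from a splice junction. That was the widest gap between the replicates among the 14. The summit in klar, which encodes a protein of nuclear migration and of transport along microtubules, had 311 with 175 and 164. HisRS, the histidyl-tRNA synthetase gene, had 279 with 161 and 112, and its summit was intronic in other transcripts of the gene and lay in an intron of another gene. CG10962 had 270 with 139 and 135, and the chitinase gene Cht6 had 239 with 108 and 130. Tim17b1, for a subunit of the mitochondrial inner membrane translocase, had 216 with 108 and 117. Replicate 2 was the higher in CG32428, klar, HisRS and CG10962, and replicate 3 in Cht6 and Tim17b1.

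Next came CG31259 with 208 in the pooled list, 107 in replicate 2 and 85.2 in replicate 3, CG4822 with 191, 109 and 86.0, and l(1)G0196 with 180, 81.0 and 122. CG33181 had 165, 76.3 and 75.2, and scrib, which encodes a scaffold protein of epithelial polarity, had 155, 78.7 and 83.6. Just outside the IDR list lay Uba1, the gene of a ubiquitin-activating enzyme, with 145, 86.5 and 60.9. Of the 14, 4 lay in an intron of another protein-coding gene (28.6%, interval 8.39 to 58.1%), against 6.75% of all eligible coding exon sequence. In 8 of the 14 the summit was within 100 bp of a splice junction (57.1%, interval 28.9 to 82.3%), against 31.3% of that sequence. The exon holding the summit was under 410 bp in 8 of the 14, against 22.5% of that sequence, and exons of like length were not compared.

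The 15 strongest members in 3' UTRs had pooled signals between 438 and 1457, higher than all coding exon members but otp and Pde1c, and all were in the IDR list. The strongest lay in the 3' UTR of stas (FBgn0030850) on X (17624858 to 17625286), 381 bp past the stop codon of 1 of the 2 transcripts that cover it and in an intron of the other. Its signals were 1457 in the pooled list, 739 in replicate 2 and 731 in replicate 3, which ranked it 328. CG7872 (FBgn0030658), a gene of 1 exon on X (15579623 to 15579962), followed with 1219, 679 and 529, at 64 bp from the transcript end. CG5984 (FBgn0039500) on 3R (27246230 to 27246604) had 1006, 442 and 567, at 32 bp from the transcript end. The focal adhesion gene by (FBgn0000244), which encodes tensin, had 828, 430 and 396 on 3R (9528499 to 9528817).

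CG33307 had a pooled signal of 699 with 342 in replicate 2 and 359 in replicate 3. NetB, which encodes the axon guidance protein Netrin-B, had 676 with 327 and 358, at 1942 bp past the stop codon in a long 3' UTR. Myd88, the adaptor of the Toll pathway, had 624 with 308 and 302. In these 3 the replicates lay close to each other. CG8206 had 603 with 367 and 248, and CG5895 had 596 with 358 and 229, replicate 2 being the higher in both. The gene scf had 559 with 265 and 288, and CG10357 had 494 with 240 and 239. Several of these summits sat at the very end of the transcript: 28 bp from it in CG8206, 33 bp in CG5895 and 19 bp in scf.

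CG14440 had a pooled signal of 491 with 306 in replicate 2 and 193 in replicate 3, and qvr, which encodes a regulator of the Shaker potassium channel, had 487 with 231 and 256. The phosphoserine phosphatase gene aay had 446 with 220 and 228, and Tctp, the gene of the translationally controlled tumour protein, had 438 with 227 and 216. Tctp, aay, CG14440, by, CG7872 and CG8206 have a single exon in the transcript used. The strongest members by arm were Pde1c for coding exons and CG33307 for 3' UTRs on 2L, otp and Myd88 on 2R, l(3)mbn and CG5895 on 3L, Tim17b1 and CG5984 on 3R, and HisRS and stas on X.

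**Figure D3:**
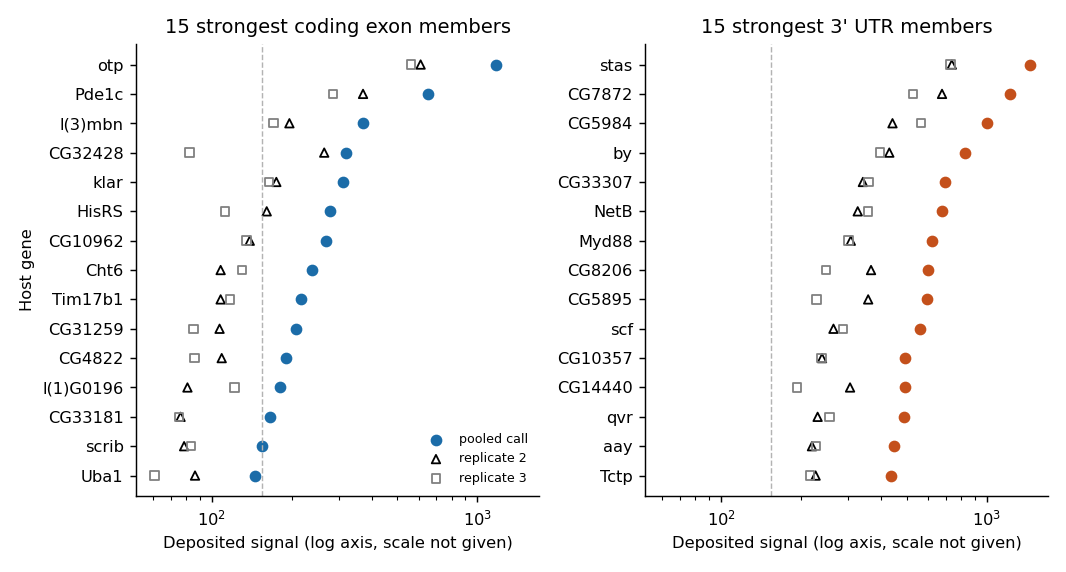
Deposited signal (x axis, log scale) of the 15 strongest coding exon members (left) and 3' UTR members (right), by host gene, in the pooled list (filled), in replicate 2 (triangles) and in replicate 3 (squares). The dashed line is the lowest pooled signal of the IDR list, 154; Uba1 lies below it and CG32428 has its replicates farthest apart, at 265 and 82.6.

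At coding exon members the DNA was poorer in A and T than the sequence beside it. The median A+T content of the 51 bp at the summit was 45.1%, and that of windows 400 bp to both sides was 57.8%. It was lower at the summit than in the flanks in 315 of 380 members (82.9%, interval 78.7 to 86.5%), with a median difference of -11.8 percentage points. All eligible coding exon sequence, taken every 200 bp, had 47.1% at the position and 52% in the flanks, a median difference of -4.90 points, and was lower than its flanks at 66.2% of positions. Intron peaks went the other way, with 62.7% at the summit and 58.8% in the flanks, and were lower at the summit in 41.5%. Each replicate's own list gave the same median of 45.1% at summits in coding exons, with flanks of 56.9% in both.

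Coding exon members also lay in shorter exons, which moves with the A+T of the flanks. The exon holding the summit had a median length of 612 bp, against 978 bp for the coding exon sequence, and 400 bp upstream of the summit 56.1% of members were still in an exon, against 77.3% of that sequence. Only 69 of the 380 members had exon over the whole 851 bp window out to both flanks. In these the median was 45.1% at the summit and 50% in the flanks, a median difference of -6.86 points, with 50 of 69 lower at the summit (72.5%, interval 60.4 to 82.5%). Coding exon sequence with such windows had 47.1% and 48.0%, a median difference of -0.980 points, with 54.7% lower. The difference from the flanks was thus smaller in members within wholly exonic windows, and there too it was larger than in such sequence at large.

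Members in 3' UTRs were close in base composition to intron peaks. Their median A+T was 62.7% at the summit and 60.8% in the flanks, against 64.7% and 60.8% in all eligible 3' UTR sequence. The summit was lower than its flanks in 44.9% (interval 40.4 to 49.5%) of members and 36.1% of that sequence, so these summits were slightly less rich in A+T than 3' UTRs at large. The 70 members in the IDR list had a median of 68.6%, the same as the intron peaks of that list, while the 14 coding exon members in it had 46.1%. Across members, Spearman's rho between signal and A+T was 0.112 in 3' UTRs and -0.000945 in coding exons, against 0.279 in intron peaks, a description over peaks that share their libraries.

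**Figure D4:**
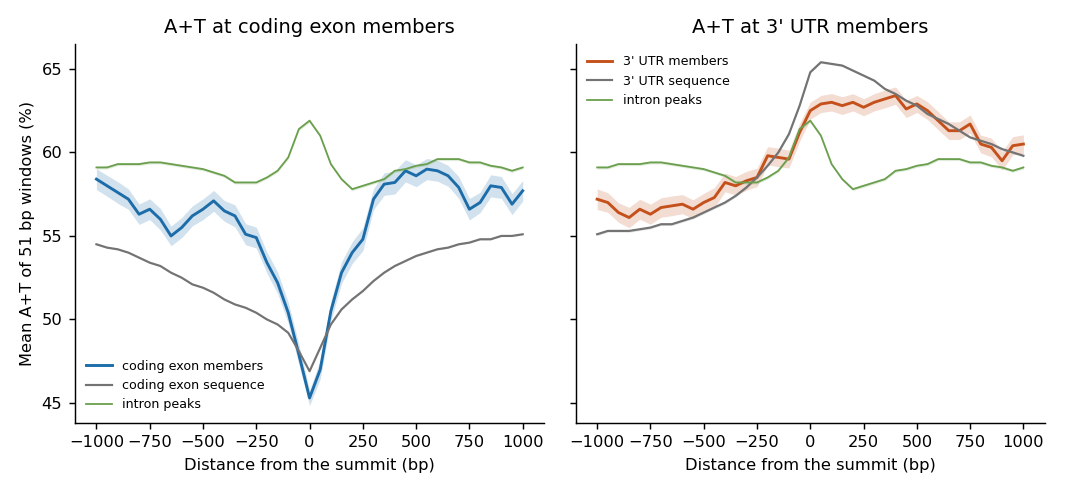
Mean A+T content of 51 bp windows (%, y axis) by distance from the summit (bp, x axis) for coding exon members (left, blue) and 3' UTR members (right, orange), with all eligible sequence of the class in grey and intron peaks in green; bands are 1 standard error over peaks or positions. Members and sequence are drawn in the direction of transcription and intron peaks along the plus strand. Coding exon members dip to 45.3% at the summit, where the sequence stands at 46.9% and intron peaks rise to 61.9%.

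Within the host transcript, coding exon members leaned towards the 5' side. Their median position was 39.2% along the spliced transcript, against 50.8% for coding exon sequence, and 61.6% (interval 56.5 to 66.5%) lay in the first 50% of it, against 48.8%. Among the 14 in the IDR list 6 lay in the first 50% (42.9%, interval 17.7 to 71.1%), with a median position of 56.6%. The stretch between 10% and 20% held 19.2% of members (interval 15.4 to 23.5%), against 7.42% of the sequence. A TSS lay within 1000 bp of 30.3% of members (interval 25.7 to 35.2%), against 23.7% of the sequence. The transcripts used had a median length of 2903 bp at members and 3512 bp over the sequence. Whether members lean to the 5' side at like distances from a TSS was not tested. Splice junctions were also nearer, with 42.1% of members within 100 bp of one (interval 37.1 to 47.2%), against 31.3%. Their exons were shorter too, under 410 bp at 35.8% of members (interval 31.0 to 40.8%), against 22.5% of the sequence. Whether members lie nearer to junctions in exons of like length was not tested. The base was intronic in another transcript of the gene at 11.1% of members (interval 8.08 to 14.6%), against 6.04% of the sequence. The stop codon lay within 100 bp of 10% (interval 7.17 to 13.5%), against 6.06%.

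Members in 3' UTRs lay somewhat farther from the stop codon than the sequence does and more often in transcripts of a single exon. The median distance was 668 bp from the stop codon and 525 bp to the transcript end, against 473 and 481 bp for 3' UTR sequence. The stop codon lay within 100 bp of 10.1% (interval 7.60 to 13.2%), against 17.0% of the sequence. The share within 100 bp of the transcript end was 13.0% (interval 10.2 to 16.4%), against 15.4% of the sequence, and it was 21.4% (15 of 70, interval 12.5 to 32.9%) among the members in the IDR list. The transcript used had a single exon at 12.2% of members (interval 9.43 to 15.5%) and at 21.4% of those in the IDR list (15 of 70, interval 12.5 to 32.9%), against 6.11% of the sequence. The gene can have other transcripts that are spliced, as Syx1A does. The summit lay in an intron of another protein-coding gene at 12.2% (59 members, interval 9.43 to 15.5%) and at 17.1% of those in the IDR list (interval 9.18 to 28.0%), against 6.84% of the sequence.

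Members were found nearer to strong peaks than exonic sequence is, and so were the other peaks. The median distance to the nearest IDR summit that is no member was 2865 bp from coding exon members and 4376 bp from members in 3' UTRs, against 8751 bp and 9050 bp from all eligible sequence of the 2 classes. Such a summit lay within 1000 bp of 13.2% of coding exon members (interval 9.93 to 17.0%) and 6.63% of members in 3' UTRs (interval 4.58 to 9.22%), against 3.50% and 3.24% of the sequence. Intron peaks had one within 1000 bp in 17.7%, intergenic peaks in 13.5% and TSS peaks in 24.3%. Their median distances were 3076, 4848 and 2663 bp, leaving out a peak's own summit. Nearness to strong peaks was thus not particular to members. In all, 82 of the 863 members had one so near (9.50%, interval 7.63 to 11.7%). The shortest distance was 199 bp from a member, and it was also 199 bp from intron, intergenic and TSS peaks, so it is no trait of members. Positions of coding exon sequence, which are not peaks, came as close as 53.0 bp.

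**Figure D5:**
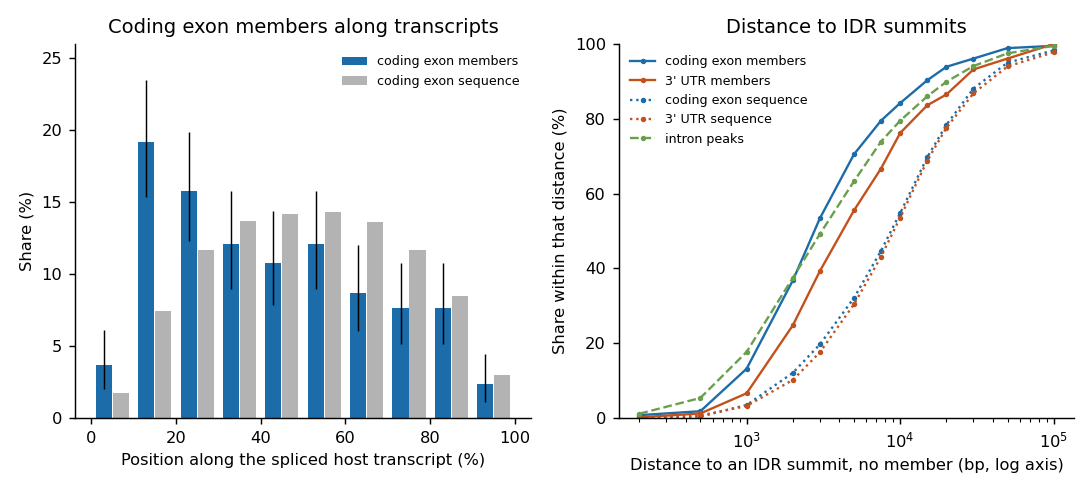
Left, share of coding exon members (blue, exact 95% intervals) and of all eligible coding exon sequence (grey) in 10 equal stretches of the spliced host transcript (x axis, %). Right, share of members, eligible sequence and intron peaks (%, y axis) with an IDR summit that is no member within a given distance (bp, x axis, log scale): at 5000 bp it is 70.5% of coding exon members and 55.5% of 3' UTR members, against 32.1% and 30.4% of the sequence.

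The members lay in 644 of the 13020 protein-coding genes with eligible sequence, which is 4.95% of them. An IDR summit lay within 500 bp of one of their own TSSs in 249 hosts (38.7%, interval 34.9 to 42.5%), against 21.5% of all eligible genes and 20.6% of the genes without a member (interval 19.9 to 21.3%). Host genes were longer, with a median span of 5470 bp against 2281 bp for genes without a member, and had 1.86 TSSs on average against 1.40. In 4 equal groups of genes by span, shortest first, the share was 23.7%, 26.1%, 40.0% and 45.1% of hosts, against 11.6%, 17.5%, 24.0% and 32.7% of all genes of the group. Hosts had the higher share in each group.

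Most hosts, 500 of 644, held 1 member. The gene with the most was ps, which encodes the splicing regulator Pasilla, with 9 members, 8 of them in its 3' UTRs. Their pooled signals ran between 37.6 and 136, and the coding exon member had 44.8 with no peak in either replicate list. Glut4EF and corto, for a chromatin protein, had 7 each. The strongest in Glut4EF had 230, with 117 in replicate 2 and 97.0 in replicate 3, and the strongest in corto had 174, with 84.2 and 95.8. The meiotic RNA-binding protein gene bol and bun, which encodes a transcription factor of the TSC22 family, had 6 each. The 3' UTRs held 5 of the 7 in Glut4EF, 6 of the 7 in corto, all 6 in bol and 3 of the 6 in bun. The strongest in bol had 99.0, with 58.8 and 54.9, and the strongest in bun had 114, with 48.2 and 69.3. Of all members in these 5 genes, 1 in Glut4EF and 1 in corto were in the IDR list. Neighbouring members can overlap the same replicate peak, as 2 members of bol do, so they are not separate measurements.

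The 21 gene lists were made by hand and hold only part of each family, so a count of hosts speaks for the genes listed. Nuclear receptors and genes of the ecdysone response, the steroid hormone pathway of the fly, had the largest share of hosts of the 21 lists, with 6 of 21 genes (28.6%, interval 11.3 to 52.2%) and 14 members, or 122 per Mb of eligible sequence, against 4.95% of all genes and 35.1 per Mb. Of the 14 members, 5 were in Eip74EF and 4 in ftz-f1. The strongest of the 14 was in the 3' UTR of Hr4, with 421 in the pooled list, 223 in replicate 2 and 202 in replicate 3. A coding exon member in ftz-f1 had 108, 31.4 and 68.8, and Hr3 had 90.7 in the pooled list, 64.3 in replicate 3 and no peak in replicate 2. Of the 3, only Hr4 was in the IDR list.

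Cytoskeletal genes held members in 5 of 25 (20%, interval 6.83 to 40.7%) and RNA processing genes in 5 of 33 (15.2%, interval 5.11 to 31.9%), with 58.4 and 80.1 members per Mb. Of the 15 members in RNA processing genes, 9 were in ps and 3 in elav. Both lists had their strongest member in a 3' UTR. In chic, the profilin gene, it had 281, 141 and 153, and in the actin gene Act5C 183, 119 and 60.5. In elav, the neuronal RNA-binding protein gene, it had 229, 113 and 126, while a coding exon member in bru2, of the Bruno family of RNA-binding proteins, had 72.3, 35.5 and 21.1. The dynein light chain gene ctp had 136, 54.1 and 81.8. Of these 5, chic, Act5C and elav were in the IDR list.

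In the list of neural genes 5 of 47 were hosts (10.6%, interval 3.55 to 23.1%), led by NetB and elav. The potassium channel gene Sh had 78.2 in the pooled list, 20.2 in replicate 3 and no peak in replicate 2. Of 29 genes of epidermis and cuticle 4 were hosts (13.8%, interval 3.89 to 31.7%). Beside scrib, they included the polarity gene dlg1 with 68.1, 41.8 and 31.3 and the zona pellucida domain gene pio with 38.8, 22.2 and 33.4. Of 36 genes of mesoderm and muscle 4 were hosts (11.1%, interval 3.11 to 26.1%), against 4.95% of all genes. Among them rst had 121, 62.1 and 64.7, sns, needed for myoblast fusion, had 47.6 with no peak in replicate 3, and the troponin C gene TpnC47D had 37.2, 24.5 and 20.1. Of these 6 genes, scrib was in the IDR list. Members per Mb were 43.4 in neural genes, 39.3 in epidermis and cuticle and 15.8 in mesoderm and muscle, against 35.1 in all genes.

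Of 12 genes of glycolysis 2 were hosts (16.7%, interval 2.09 to 48.4%), with 152 members per Mb: Hex-A, a hexokinase gene, with 247, 163 and 89.6, and the aldolase gene Ald1 with 41.9. Of 53 cytoplasmic ribosomal protein genes 2 were hosts (3.77%, interval 0.460 to 13.0%), with 72.6 per Mb, RpS26 with 183, 79.4 and 97.0 and RpS23 with 75.1, 32.7 and 33.1. Of 8 histone genes 1 was a host (12.5%, interval 0.316 to 52.7%), with 194 per Mb, His3.3B with 39.5. These densities rest on 1 to 3 members each. Hex-A and RpS26 were in the IDR list. Histone genes have near-identical copies, and the authors' placing of reads that fit several copies, not given in the sources used here, could split them.

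Genes that pattern the embryo held members at shares whose intervals all took in the 4.95% of all genes, and the members named were not in the IDR list. Of 31 segmentation genes 3 were hosts (9.68%, interval 2.04 to 25.8%): inv, an engrailed-class homeobox gene, with 104, 23.3 and 43.2, the nuclear receptor gene knrl with 37.9 and the Wnt ligand gene wg with 34.8. Of 8 Hox genes Antp was the host (12.5%, interval 0.316 to 52.7%), with 35.2 in the pooled list and no peak in either replicate list. Of 22 Notch pathway genes 2 were hosts (9.09%, interval 1.12 to 29.2%). The glycosyltransferase gene fng had 128, 71.8 and 52.4, and N, the receptor itself, had 45.6. Of 52 genes of the Dpp, Wingless, EGF receptor and Hippo pathways 3 were hosts (5.77%, interval 1.21 to 15.9%): the kinase gene sgg with 63.7, 35.5 and 26, the EGF receptor ligand gene vn with 37.9 and wg. Members per Mb were 40.2, 39.3, 35.6 and 14.7 in these 4 lists, against 35.1 in all genes.

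Of 22 genes of basement membrane and adhesion 2 were hosts (9.09%, interval 1.12 to 29.2%), with 17.9 members per Mb against 35.1 in all genes. They were the adhesion protein gene Fas3 with 51.4 and if, an integrin subunit gene, with 37.4. Of the 36 chromatin genes listed 1 was a host (2.78%, interval 0.0703 to 14.5%), with 12.5 members per Mb. It was the Polycomb group gene Su(z)2 with 121, 62.7 and 61.7. The gene corto and 2 other hosts known as chromatin genes, RYBP and Bre1, are not on that list. They were looked up after their values were seen. No member lay in any of the listed 28 heat shock and chaperone genes, 35 translation factor genes, 20 insulator genes, 21 chemoreceptor genes, 19 genes of the microRNA and piRNA machinery or 13 genes of yolk and eggshell. With exact intervals, these counts of 0 allow shares of up to 12.3%, 10%, 16.8%, 16.1%, 17.6% and 24.7%, all above the 4.95% of all genes. Chemoreceptor genes outside the list did host members, with 3 in Ir68a, 1 in Gr33a and 1 in Or45b, also looked up after their values were seen.

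Of the 16 words, read on both strands in windows reaching 100 bp to each side of the summit, most were about as frequent in members as in the sequence they lie in. The interval of the members left out the share of the sequence in 8 of 32 comparisons, 4 in each class. In coding exon members the Pho core GCCAT stood in 51.1% of windows (interval 45.9 to 56.2%), against 42.1% of coding exon sequence. The repeat CAGCAGCAG, which encodes glutamine in 1 of its frames, stood in 7.89% (interval 5.39 to 11.1%), against 5.10%. The TATA box letters TATAAA stood in 10% (interval 7.17 to 13.5%), against 6.82%, and the core AGGGGGCGC of the insulator factor CTCF in 2 members (0.526%, interval 0.0638 to 1.89%), against 0.0472%. All 4 were more frequent in members. Among the 14 members in the IDR list GCCAT stood in 6 (42.9%, interval 17.7 to 71.1%). There CAGCAGCAG and TATAAA stood in 1 member each and the CTCF core in 0. Windows of members also left the exon more often: 100 bp upstream of the summit 77.1% were in an exon, against 85.9% of the sequence. The words were not compared in windows of like exon content.

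In 3' UTRs the E-box CAGCTG, the letters read by many basic helix-loop-helix factors, stood in 8.49% of members (interval 6.16 to 11.3%). It stood in 15.7% of those in the IDR list (11 of 70, interval 8.11 to 26.4%). The share was 4.50% in 3' UTR sequence, 7.38% in intron peaks and 10.4% in peaks within 500 bp of a TSS. The intron and TSS peaks are of all ranks, and those in the IDR list were not counted apart. The dinucleotide repeat CACACACA stood in 8.70% (interval 6.34 to 11.6%), against 5.90%, but in 1 of the 70 members in the IDR list (1.43%, interval 0.0362 to 7.70%). The other 2 were less frequent in members: the AU-rich element ATTTA, which in a messenger RNA can shorten its life, stood in 69.8% (interval 65.5 to 73.8%), against 74.7%, and the initiator letters TCAGTT in 10.1% (interval 7.60 to 13.2%), against 13.5%. The letters of 2 other words known from 3' UTRs did not stand apart. The polyadenylation signal AATAAA stood in 45.1% (interval 40.6 to 49.7%), against 45.3%, and the Pumilio site TGTANATA in 17.4% (interval 14.1 to 21.1%), against 16.5%. Both strands were read, and windows can run past the transcript end. These shares, like that of ATTTA, thus do not single out matches in the messenger RNA.

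Of the words known from promoters of this species, the DNA replication-related element and the M1BP site were rare in members. The DNA replication-related element TATCGATA stood in 0 of 380 coding exon members, which with an exact interval allows up to 0.966%, and in 1 of 483 members in 3' UTRs (0.207%), against 3.61% of the peaks within 500 bp of a TSS. The M1BP site GGTCACACT stood in 1 coding exon member (0.263%) and in 0 members in 3' UTRs, against 2.01% of those peaks. Both words were also rare in intron peaks, with 0.354% and 0.184%, so their rarity was not particular to members. The TATA box letters and the GAGA repeat GAGAGAGA were not rarer in 3' UTR members than at TSSs beyond counting error, with 32.1% (interval 27.9 to 36.5%) against 30.5% and 2.48% against 2.60%. In coding exon members they stood in 10% and 0.526%, and the initiator letters in 8.95% (interval 6.28 to 12.3%), against 16.3% at TSSs. In the exonic sequence itself the replication-related element and the M1BP site were also rarer than at TSSs, with 0.179% and 0.0848% of coding exon positions and 0.503% and 0.0369% of 3' UTR positions.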

How the data were processed

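In narrowPeak format on assembly dm6 the authors deposited 4 lists of peaks: 1 per replicate, 1 on both replicates together and an IDR-thresholded list, each against a control per the deposited text files. Each holds a signal per peak and a −log10 q-value per peak as deposited by the authors. They were made with a caller, an aligner and an IDR threshold not given in the sources used here. Chromatin was sheared to 200 to 800 bp, per the labels.

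Summits were classed against Ensembl release 115 (BDGP6.54), with 23581 TSS positions of all genes but transposable elements. Positions in a transcript use the Ensembl canonical one where it holds the summit, and distances run along the spliced transcript. Eligible sequence was sampled every 200 bp (93129 coding exon and 29815 3' UTR positions). Peaks matched when they shared at least 1 bp, and the overlapping replicate peak with the nearest summit gave its signal.

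The members, the gene lists, words and named genes were chosen with earlier results of these data known. Named were the hosts of all coding exon members in the IDR list, of the 15 strongest of each class, the strongest of each arm, the 5 with most members and up to 3 hosts per list by signal. The names in the lists matched 555 of 600 times. The windows wholly in exon were chosen after the A+T profile was seen. Classing was tested on simulated summits of known class. Python 3.11.15, numpy 2.4.6, pandas 2.3.3, scipy 1.17.1 and matplotlib 3.10.9 were used.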

Additional observations from a re-analysis of the deposited data

How the results depend on the processing

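The counts of members in all, in coding exons and in 3' UTRs stayed within 1.5 times the reported ones under all 8 alternatives, of which the RefSeq annotation gave the same 863 members and so is hardly a separate check. Each replicate's own list gave 932 to 980 members in place of 863, with 413 to 442 in coding exons and 490 to 567 in 3' UTRs. The IDR share of 9.73% was 33.6% among the strongest 15000 peaks, which leaves out weak members by construction. The share with a peak in both replicate lists, 58.5%, was 46.1% with an overlap of 50% of both peaks, 38.4% with replicate summits within 100 bp and 21.9% with the strongest 15000 peaks of each list. Median A+T of all members, 52.9%, was 54.5% and 55.7% in windows reaching 50 and 100 bp to each side, and 52.9 to 54.9% in each replicate's list. By the distances' own construction, the share of members near an IDR summit, 9.50%, was 1.51% within 500 bp and 30.1% within 2000 bp, and that of hosts with one at a TSS, 38.7%, was 24.8% within 200 bp and 46.6% within 1000 bp. At those distances all eligible genes had 14.5% and 25.2%. No paired analysis was possible because there is 1 group and no test. Without read totals, depth limits the weak peaks by an unknown amount.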
